A study of Mus musculus with 25 samples.

Results

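The 215 genes described here are the numbered zinc finger protein genes that mouse hearts express at a measurable level. They were chosen by their mean level: they are the genes of the deposited count table whose mouse symbol is Zfp followed by digits and whose mean was at least 5 CPM over all 25 hearts, CPM being a gene's count scaled to a common library total, here the raw column total. The table of 56941 genes holds 374 such symbols. The other 159 lie below that level, 10 of them with 0 counts in every heart. Zfp560, Zfp2 and Zfp511 stand just inside the threshold at 5.07, 5.05 and 5.05 CPM, and Zfp87, Zfp984 and Zfp946 just outside it at 4.96, 4.92 and 4.85 CPM. The set was proposed because 2 of its genes, Zfp758 and Zfp931, were lower with saline in wild-type hearts, so every value from that comparison is given below as a description and not as a test.

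The series asks how lactate is handled during cardiac hypertrophy, and it compared mouse hearts by genotype and treatment. Wild-type (WT) hearts had no pump (4 hearts), saline (6) or Ang/PE, a pair of neurohormonal agonists that cause myocardial hypertrophy (3). Hearts labelled MCT1KO had no pump (3), saline (4) or Ang/PE (5). MCT1 is the lactate and pyruvate transporter encoded by Slc16a1. Strain, sex, age, dose, infusion time, the cells in which MCT1 was targeted and the deletion itself are not given in the sources used here, and neither is whether each library is 1 animal. The p-values below therefore measure the spread between these samples, whatever its source. Counts of library pairs within a group were compared by chi-square per degree of freedom, low values meaning like libraries. MCT1KO saline replicates 1 and 2 had the lowest value, 3.60, against a median of 25.8 over 43 pairs. The other pairs of that group gave 53.2 to 121. Whether these 2 libraries share a source was not tested, and the fits took them as separate samples.

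Most proteins of the family carry a row of C2H2 zinc fingers, small folds in which a pair of cysteines and a pair of histidines hold a zinc ion, and each finger reads a short stretch of DNA. Many also carry a KRAB domain at the amino end, which recruits the corepressor Trim28 and the histone methyltransferase Setdb1. Such KRAB zinc finger proteins are known for silencing retroelements and some imprinted genes. They arose by repeated gene duplication, sit in clusters of near copies, and their transcripts are often poor in G and C. Some members have other work, such as mRNA decay (Zfp36), spindle assembly and splicing (Zfp207) or ubiquitin transfer (Zfp91).

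The first finger of each of the 2 genes that gave rise to the set, and of Zfp260, a cardiac transcription factor known as a partner of Gata4, is given here as coding sequence of GENCODE M21, with the codons of the zinc-holding cysteines and histidines in capitals. These stretches show what the family shares and how AT-rich its GC-poor members are.
Zfp758: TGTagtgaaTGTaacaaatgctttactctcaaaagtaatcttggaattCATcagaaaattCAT
Zfp931: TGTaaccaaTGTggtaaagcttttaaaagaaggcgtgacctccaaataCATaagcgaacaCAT
Zfp260: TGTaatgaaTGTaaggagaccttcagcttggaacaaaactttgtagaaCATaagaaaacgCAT
Each stretch is 63 bases long. They are coding bases 715 to 777 of 1749 in Zfp758, 313 to 375 of 894 in Zfp931 and 73 to 135 of 1221 in Zfp260. Their GC content is 28.6%, 38.1% and 34.9%.

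The start regions of the 2 genes differ, as the RefSeq promoter windows (250 bases before to 50 after the start, assembly GRCm38.p6) show, with each CG in capitals. The Zfp758 window is chr17:22361213-22361512 on the plus strand and the Zfp931 window is chr2:178078376-178078675 on the minus strand.
Zfp758: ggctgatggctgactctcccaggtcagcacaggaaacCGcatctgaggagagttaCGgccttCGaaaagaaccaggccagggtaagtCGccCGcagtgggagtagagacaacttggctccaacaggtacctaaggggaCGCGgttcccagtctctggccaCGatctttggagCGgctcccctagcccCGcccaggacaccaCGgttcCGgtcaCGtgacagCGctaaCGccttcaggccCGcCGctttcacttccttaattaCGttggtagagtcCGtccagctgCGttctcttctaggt
Zfp931: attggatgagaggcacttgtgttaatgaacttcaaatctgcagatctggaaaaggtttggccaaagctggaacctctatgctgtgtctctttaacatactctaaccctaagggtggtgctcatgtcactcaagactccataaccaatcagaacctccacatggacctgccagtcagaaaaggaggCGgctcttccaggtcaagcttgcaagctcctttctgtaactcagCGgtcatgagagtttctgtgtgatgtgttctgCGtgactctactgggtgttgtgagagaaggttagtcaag
The Zfp758 window holds 20 CG at 59.3% GC, although the transcript has 35.4% GC. The Zfp931 window holds 3 CG at 47% GC, above a transcript of 33.2% GC. RefSeq windows were matched to 177 of the 215 members, whose median was 17 CG against 7 over 27025 genes. A CG is present in 94.6% of all 32851 windows, so its presence sets no gene apart. The 27025 genes were not filtered by level in heart as the members were, so the medians do not compare genes of like level. Zfp931, with 3 CG, lies below both medians.

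Coding sequence was found for 214 members (Zfp469 had none), and 210 of these encode at least 1 finger that matches the pattern C, 2 to 4 residues, C, 12 residues, H, 3 to 5 residues, H. The median was 11 fingers, and Zfp142 had the most with 36. The 4 members without a match are Zfp36, whose fingers are of the CCCH kind, Zfp703, Zfp839 and Zfp330. A KRAB A-box signature was found in 81 members and not in 133. Transcripts of the 81 had a median GC content of 40.7% against 49.4% in the 133, and a median level of 2.54 against 4.31 CPM per kilobase. The nearest gene on one side or the other is also a numbered Zfp gene for 57 of the 81 and for 42 of the 133.

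The members as a whole are poorer in GC than the genes they were tested with. Their median transcript GC content was 45.2%, with a range from 33.2% to 68.7%, against 49.0% over all tested genes. Zfp931 and Zfp758 lie at the low end, and Zfp931 has the lowest value of the set. Sequence is also shared between copies: 40 members have over 10% of their 50-base stretches in common with another gene, and 5 have over 50% (Zfp970, Zfp213, Zfp90, Zfp784 and Zfp97). That share is 5.99% in Zfp758, 16.7% in Zfp931 and 40.05% in Zfp971. How reads with several matches were counted is not given in the sources used here, so the split of reads between such copies is uncertain.

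All 215 members passed the low-count filter, and the lowest count of any member in any heart was 32. The member with the highest level was Zfp106, an RNA-binding protein, at 1303 CPM or 143 CPM per kilobase. The next members per kilobase were Zfp207 (22.3), Zfp970 (22.2), Zfp651 (20.99), Zfp869 (19.5) and Zfp706 (18.1). By CPM without regard to length, Zfp106 was followed by Zfp651 (133), Zfp652 (125), Zfp644 (112), Zfp445 (106), which guards genomic imprints, and Zfp91 (95.7). The median member had a mean of 14.7 CPM, and 77 members lay under 10 CPM.

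A few facts of the whole series touch the results. Total counts per heart ran from 18382102 to 24880683 without a pump, from 14034354 to 19034565 with saline and from 12216704 to 16610416 with Ang/PE. The 7 cardiomyocyte markers summed to between 34143 and 70803 CPM in every heart. Slc16a1 was not called between genotypes in any treatment. Its mean was lower in the hearts labelled MCT1KO in each, at 199.8 against 203 CPM without a pump, 158 against 199 CPM with saline (log2 fold change −0.33, adjusted p = 0.219) and 189.8 against 214 CPM with Ang/PE. The summed level of 4 atrial genes reached 3813 CPM among the saline hearts, 8 of 10 of which lay above every heart of the other treatments by the mean log2 level. WT saline replicate 1 (2.15 CPM) and MCT1KO saline replicate 3 (1.56 CPM) did not, and the other treatments had 1.70 to 5.87 CPM. Xist exceeded 100 CPM in 13 hearts, in 0 of 3 without a pump, 3 of 4 with saline and 4 of 5 with Ang/PE among those labelled MCT1KO, and in 2 of 4, 1 of 6 and 3 of 3 in WT.

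Zfp758, a KRAB member with 12 fingers, was highest in WT hearts without a pump. Its 4 values there were 15.7, 15.3, 14.9 and 13.9 CPM (mean 14.95 ± 0.787 SD). The 6 WT saline hearts ranged from 7.06 to 8.37 CPM with a median of 7.59, and the log2 fold change was −0.97 (SE 0.14). The saline hearts lay close together and far below the hearts without a pump. In the other groups the values were 8.17, 10.8 and 10.1 CPM in WT Ang/PE hearts, and 12.5, 8.78 and 9.92 CPM in hearts labelled MCT1KO without a pump. Those labelled MCT1KO had 8.56, 8.57, 13.7 and 9.50 CPM with saline and 8.59, 7.96, 6.69, 9.49 and 12.2 CPM with Ang/PE. All 4 WT hearts without a pump lay above each of the 21 other hearts, whose highest value was 13.7 CPM. These 4 hearts are part of the contrast that chose the gene, so their place is a description.

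Zfp931, a KRAB member with 7 fingers, was also highest in WT hearts without a pump. It was at 7.94, 8.67, 8.64 and 9.87 CPM in WT hearts without a pump (mean 8.78 ± 0.798 SD), and between 3.90 and 5.64 CPM with a median of 4.91 in WT saline hearts. The log2 fold change was −0.84 (SE 0.13). The remaining groups had means of 5.93 ± 0.721 (WT Ang/PE, n = 3), 5.74 ± 0.782 (MCT1KO no pump, n = 3), 5.83 ± 0.853 (MCT1KO saline, n = 4) and 5.11 ± 0.856 CPM (MCT1KO Ang/PE, n = 5). No heart outside the WT group without a pump exceeded 6.71 CPM. Among all tested genes, 0.498% had their 4 WT hearts without a pump above every other heart, and among the members Zfp758 and Zfp931 were the 2 that did. These are bulk samples, in which fewer cells of a type and less RNA per cell cannot be told apart.

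**Figure D1:**
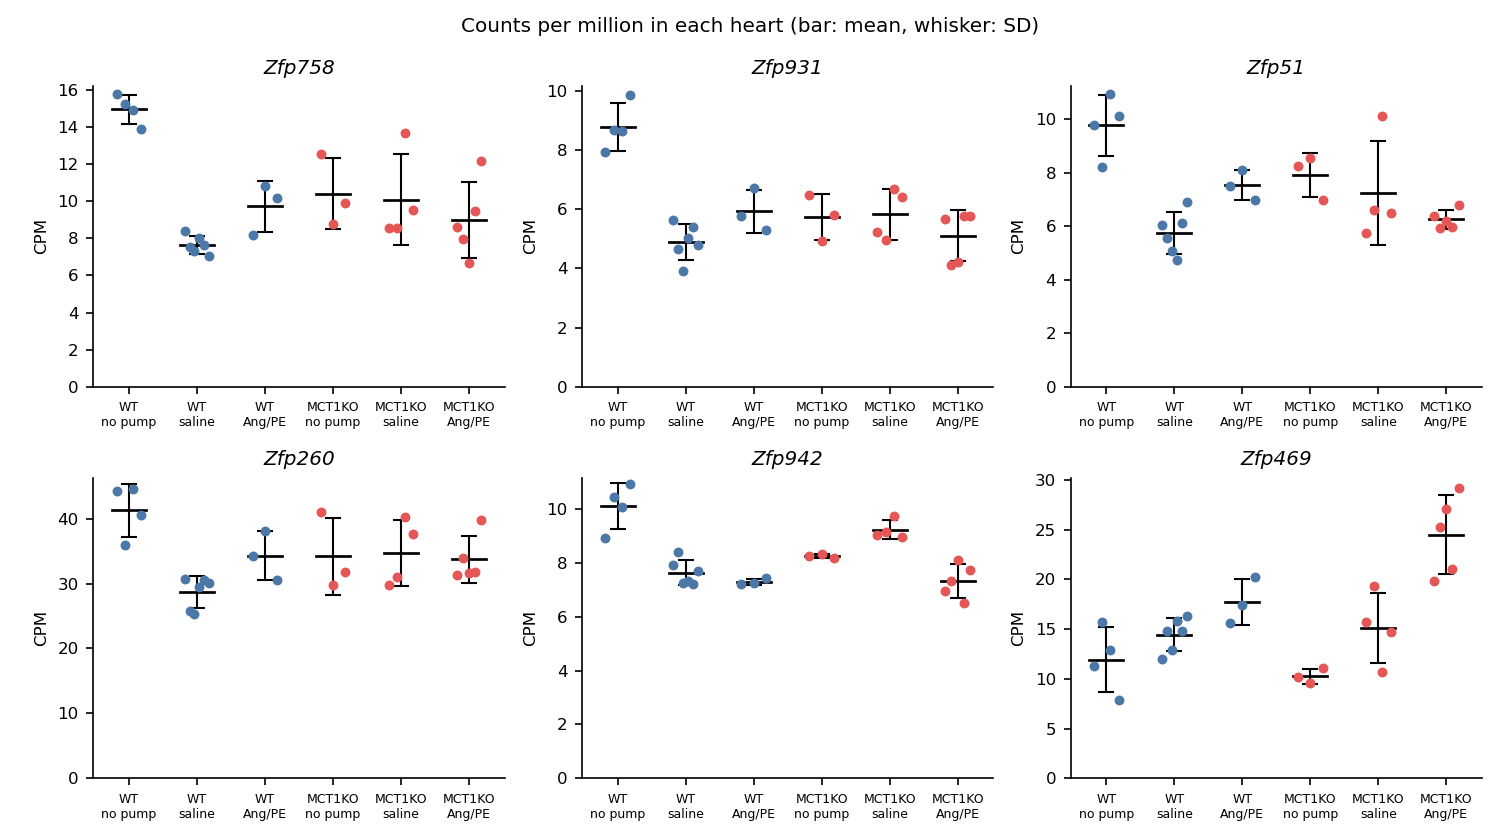
CPM of Zfp758, Zfp931, Zfp51, Zfp260, Zfp942 and Zfp469 in each of the 25 hearts (points), by group on the horizontal axis, with the group mean as a bar and the SD as whiskers. The WT hearts without a pump are above all others for Zfp758 and Zfp931, and for Zfp469 the hearts labelled MCT1KO with Ang/PE have the highest mean and overlap the WT Ang/PE hearts.

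In the same comparison, saline against no pump in WT hearts, 27 members (12.6%) were called at an adjusted p below 0.05, 24 of them lower and 3 higher, against 6.61% of all 17682 tested genes (4.22% lower and 2.39% higher) and 9.61% of the 10888 with at least 5 CPM (6.06% lower). The family was proposed from this contrast, so nothing is read from the count. After Zfp758 and Zfp931, the lower members by rank were Zfp51 (log2 fold change −0.76, SE 0.13), Zfp260 (−0.53, SE 0.10), Zfp930 (−0.56, SE 0.11), Zfp942 (−0.40, SE 0.08), Zfp788 (−0.58, SE 0.12) and Zfp971 (−0.60, SE 0.13). Of the 24, 15 carry the KRAB signature, 12 lie beside another numbered Zfp gene and 4 share over 10% of their 50-base stretches. All 24 have transcripts of 33.2% to 44.5% GC. The 3 higher members were Zfp536 (0.54, SE 0.15), Zfp608 (0.52, SE 0.16) and Zfp710 (0.39, SE 0.12), none with the KRAB signature and all at 48.8% to 56.8% GC.

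The number called changed with the heart left out, and its lowest and highest values came from leaving out WT hearts without a pump. It was 39 without WT no pump replicate 1, 16 without replicate 2, 3 without replicate 3 and 9 without replicate 4, and the number over all genes was 2234, 439, 60 and 224. Leaving out WT saline replicate 3 gave 18, with no number over all genes given here. The 3 members called without WT no pump replicate 3 were Zfp51, Zfp758 and Zfp931. Groups did not overlap, with all saline hearts lower, for 36 members (16.7%). The share was 6.22% of all tested genes and 8.84% of those with at least 5 CPM. As with the calls, nothing is read from this count, since the family was proposed from this contrast and is poor in GC.

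Zfp260, the cardiac factor, was called lower in the same contrast. In WT hearts without a pump it was at 44.2, 35.9, 44.6 and 40.5 CPM, and in the 6 WT saline hearts between 25.2 and 30.8 CPM with a median of 29.8. Every saline heart was lower. The other 4 groups had means of 33.7 to 34.7 CPM, between those 2 groups.

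**Figure D2:**
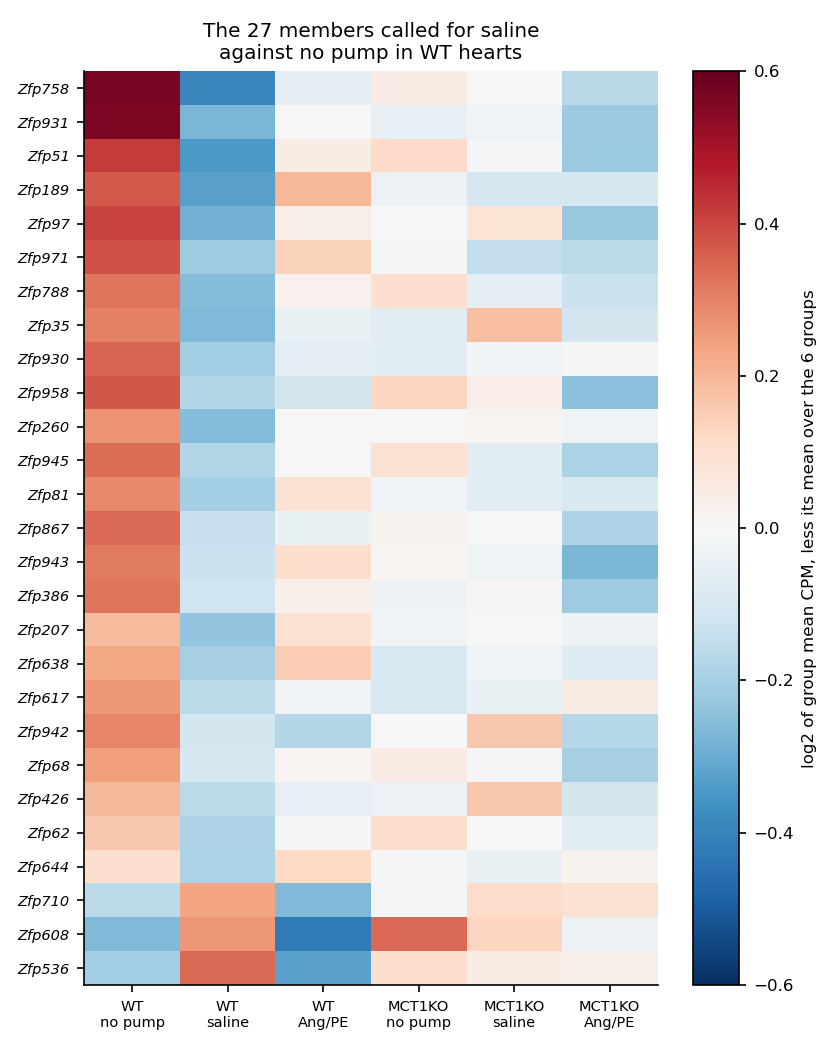
The 27 members called for WT saline against WT no pump (rows) in the 6 groups (columns), coloured by the log2 of the group mean CPM less its mean over the 6 groups. For 23 of the 24 lower members the highest group mean is that of WT hearts without a pump, the exception being Zfp644 (WT Ang/PE), and for 17 the lowest is that of WT saline hearts.

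Within the family the change followed GC content. Of the 40 members under 40% GC, all had a log2 fold change below 0 for WT saline against WT no pump, with a median of −0.34, and 13 (32.5%) were called lower. All tested genes with at least 5 CPM in that GC range had a median of −0.28 (696 genes), and 23.6% were called lower. From 40% to 45% GC the median was −0.17 over 67 members, 11 of them (16.4%) called lower, against −0.11 over 2211 genes, of which 10.9% were called lower. From 45% to 50% it was 0.02 over 37 members against 0.01 over 2792 genes. In the classes from 50% to 55% and above it was 0.14 and 0.17 over 35 and 36 members, against 0.08 and 0.14 over 2809 and 2305 genes. The median of the members thus had the sign of the median of all genes of like GC in each class and was somewhat farther from 0. Those genes include the members. Nothing is read from the distance, since the family was proposed from this contrast.

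The rank correlation of fold change with GC content was 0.77 across the 215 members and 0.43 across the 10813 tested genes with at least 5 CPM and a known GC content. The points share the same 10 libraries, and genes are not independent replicates. Such correlations over the members also stood in other comparisons (genes with at least 5 CPM in parentheses). For Ang/PE in WT hearts they were −0.55 (−0.41) against saline and 0.46 (0.07) against no pump. MCT1KO-labelled against WT hearts gave 0.54 (0.13) without a pump, −0.46 (−0.23) with saline and 0.51 (0.30) with Ang/PE. In hearts labelled MCT1KO, Ang/PE gave 0.21 (0.02) against saline and 0.32 (0.19) against no pump. For WT saline against WT no pump the median log2 fold change was −0.21 in 81 KRAB members and 0.05 in 133 without the signature. These classes also differ in GC as given above. When a smooth function of GC content and length was fitted in each library and used as an offset, 2 members were still called lower and 0 higher, against 115 of 17682 genes. They were Zfp758 (log2 fold change −0.62) and Zfp260 (−0.39). Zfp931 was at −0.36 and Zfp942 at −0.11 with these offsets, and neither was called. With atrial and adipocyte marker scores as covariates edgeR called 0 members and 0 of all genes, and Zfp758 was at −0.74. There were 24 members at an unadjusted p below 0.05, and the share of all genes in this fit is not given here. The atrial score set 8 of the 10 saline hearts above every heart of the other treatments. This fit therefore separates saline from tissue makeup poorly, and nothing is read from it.

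**Figure D3:**
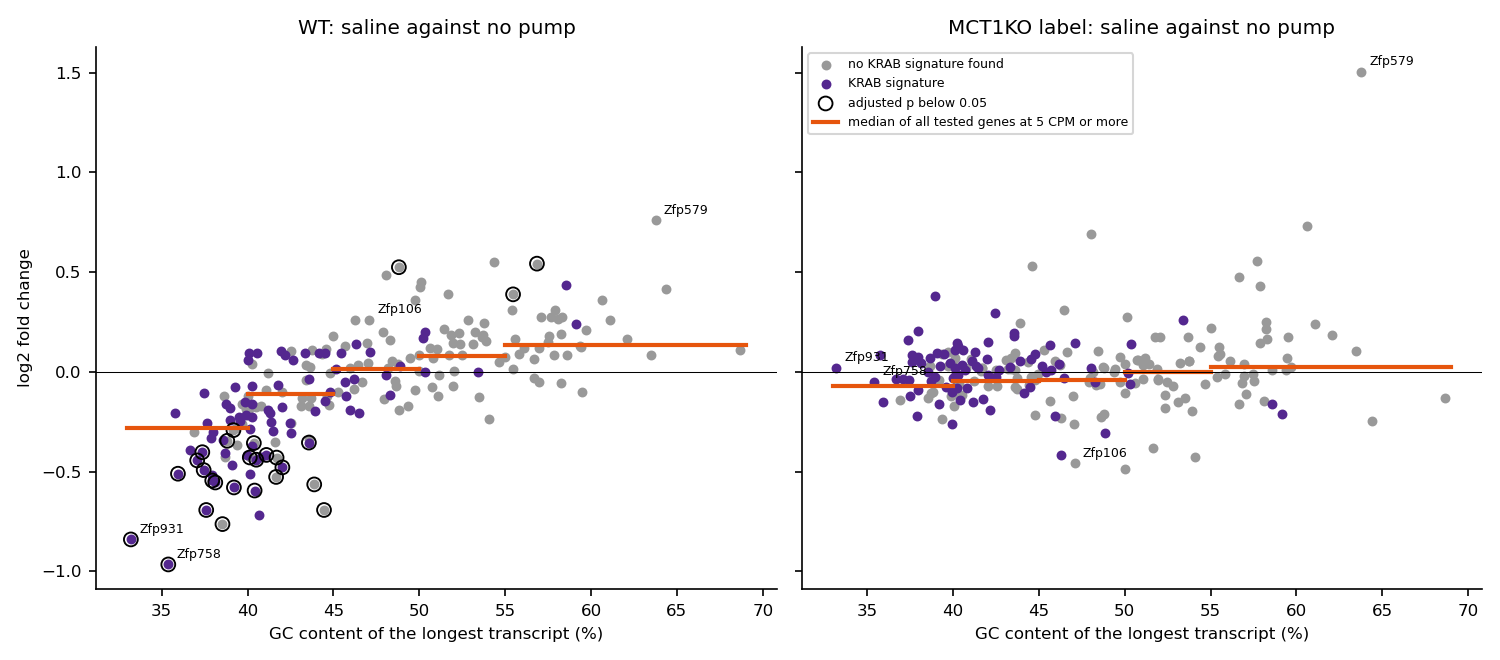
Log2 fold change with saline relative to no pump (vertical) against transcript GC content in percent (horizontal) for the 215 members, in WT hearts (left) and hearts labelled MCT1KO (right). Purple points carry the KRAB signature, circles mark an adjusted p below 0.05, and orange lines are medians of all tested genes with at least 5 CPM in 5 GC classes. On the left the members rise with GC content, and on the right they lie around 0 at all GC contents.

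The same dependence is seen heart by heart. For each heart, the log2 CPM of a gene less its mean over the 25 hearts was averaged over the 107 members under 45% GC, and its rank correlation with GC content was taken over 12600 genes outside the family. The GC-poor members averaged 0.06 to 0.22 in the 4 WT hearts without a pump and −0.18 to −0.02 in the 6 WT saline hearts, with no overlap. Genes outside the family had rank correlations of −0.29 to −0.04 in the former and 0.25 to 0.38 in 5 of the latter, with −0.08 in WT saline replicate 1, the WT saline heart with low atrial genes. In hearts labelled MCT1KO the groups overlapped, with GC-poor members at −0.04 to 0.12 without a pump and −0.04 to 0.16 with saline. The highest of these saline hearts, replicate 3, had a rank correlation of −0.30, low atrial genes and the group's highest Zfp758 level, 13.7 CPM. The part of GC content in these differences was not tested beyond the offset fit above, and that of tissue makeup was not tested.

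**Figure D4:**
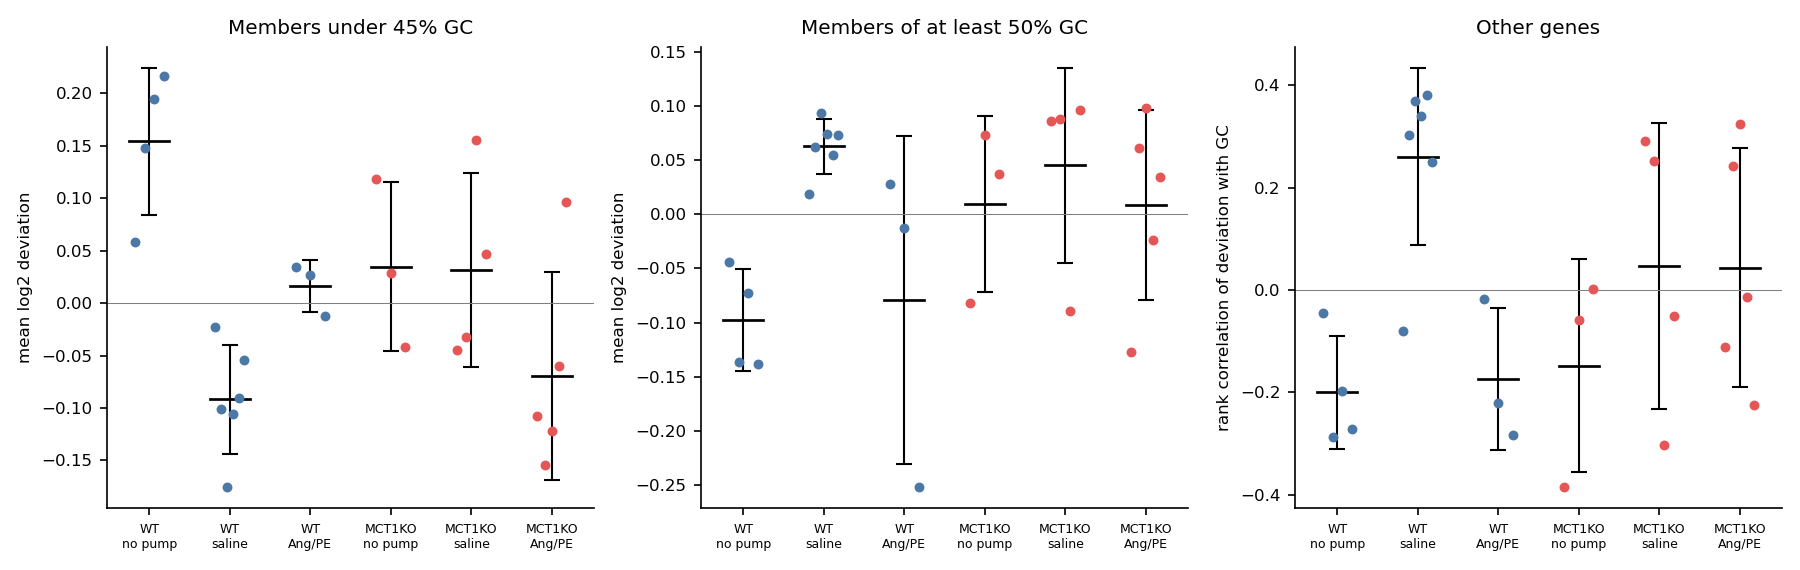
Mean log2 deviation of members under 45% GC (left) and of at least 50% GC (middle), and rank correlation of deviation with GC content over genes outside the family (right), per heart (points) with group mean (bar) and SD (whiskers). WT hearts without a pump and WT saline hearts lie on opposite sides of 0 for GC-poor members.

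The hearts labelled MCT1KO gave the same treatment step in hearts outside the contrast that chose the genes. For saline against no pump there, 0 members were called by edgeR's quasi-likelihood test, against 0.00566% of all genes. Unadjusted p was below 0.05 for 15 members (6.98%), against 12.1% of all tested genes and 12.2% of those with at least 5 CPM. DESeq2 called 2 members and 209 of all 17682 genes. Zfp758 had a log2 fold change of −0.05 (95% confidence interval −0.40 to 0.30, adjusted p = 0.945) and Zfp931 one of 0.02 (−0.31 to 0.35, adjusted p = 0.975). The rank correlation with GC content was 0.11 over the members, and the median log2 fold change was 0.01 both with and without the KRAB signature.

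The 3 members of smallest p in these hearts were others. Zfp367 was at 19.97, 16.7 and 15.7 CPM without a pump and at 26.4, 25.5, 20.6 and 28.3 CPM with saline (log2 fold change 0.53, SE 0.12, adjusted p = 0.129). All saline hearts were higher, the lowest of them, replicate 3, by a small margin. Zfp579 (1.51, SE 0.42, adjusted p = 0.161) and Zfp469 (0.56, SE 0.19, adjusted p = 0.247) had overlapping groups. Without MCT1KO saline replicate 3, which resembles the hearts without a pump in atrial genes, these 3 members were called among 626 called genes (adjusted p = 0.0111 for Zfp367, 0.0124 for Zfp579 and 0.0385 for Zfp469).

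The difference between the genotypes in the response to saline was tested as an interaction, which includes the contrast that chose the genes. It called 0 members by edgeR, against 0.00566% of all genes. Unadjusted p was below 0.05 for 41 members (19.1%), against 17.2% of all tested genes and 21.3% of those with at least 5 CPM. DESeq2 called 10 members and 371 of all genes. The rank correlation of the interaction with GC content was −0.59 over the members and −0.22 over genes with at least 5 CPM. The interaction was 0.92 for Zfp758 (SE 0.22, adjusted p = 0.119), 0.86 for Zfp931 (SE 0.21, adjusted p = 0.112) and 0.57 for Zfp942 (SE 0.13, adjusted p = 0.112). Without WT no pump replicate 1 it called 12 members and 663 of all genes. Without MCT1KO no pump replicate 1 it called 2 members, Zfp758 and Zfp367. No number over all genes is given here beside these 2, so nothing is read from them.

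Comparisons between the genotypes at 1 treatment called 0 members and 0% of all genes in each of the 3 treatments. At an unadjusted p below 0.05 there were 29 members (13.5%) without a pump, 31 (14.4%) with saline and 10 (4.65%) with Ang/PE. In the same order, the shares of all tested genes were 12.2%, 17.05% and 6.92%. Those of genes with at least 5 CPM were 15.1%, 19.6% and 7.31%. DESeq2 called 1, 0 and 0 members and 87, 141 and 5 of all genes. Without a pump, where the WT hearts are those of the contrast above, Zfp931 (log2 fold change −0.61, SE 0.16), Zfp46 (0.59, SE 0.16) and Zfp608 (0.60, SE 0.18) had the smallest p, with adjusted p of 0.227, 0.227 and 0.229. Zfp758 was at −0.52 (SE 0.17, adjusted p = 0.259). Zfp46 is the member that DESeq2 called (adjusted p = 0.0461), at 60.2, 75.4 and 76.3 CPM in the hearts labelled MCT1KO against 58.2, 47.3, 42.0 and 40.6 CPM in WT. The lowest MCT1KO value lay just above the highest WT value.

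With saline, Zfp35 (0.44, SE 0.13, adjusted p = 0.149), Zfp106 (−0.46, SE 0.14, adjusted p = 0.154) and Zfp942 (0.27, SE 0.08, adjusted p = 0.154) had the smallest p between genotypes. Leaving out MCT1KO saline replicate 3 gave 1 called member among 250 called genes. With Ang/PE they were Zfp710, Zfp943 and Zfp469, all with an adjusted p of 0.692 and overlapping groups. The difference between the genotypes in the step from saline to Ang/PE called 0 members and 0% of all genes by edgeR. DESeq2 called 0 members and 13 of all genes. Unadjusted p by edgeR was below 0.05 for 35 members (16.3%), 13.5% of all tested genes and 16.2% of those with at least 5 CPM. The smallest p for this difference belonged to Zfp787 (0.42, SE 0.13), Zfp560 (−0.59, SE 0.19) and Zfp106 (0.63, SE 0.21), each with an adjusted p of 0.294. Its rank correlation with GC content was 0.57 over the members and 0.34 over genes with at least 5 CPM.

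The step from saline to Ang/PE in hearts labelled MCT1KO called 5 members (2.33%), against 4.46% of all genes (1.75% higher and 2.7% lower). Unadjusted p was below 0.05 for 37 members (17.2%), against 20.4% of all tested genes and 22.1% of those with at least 5 CPM. Of the 5 called, Zfp469 and Zfp106 rose, and Zfp467, Zfp579 and Zfp942 fell. Without MCT1KO saline replicate 4 the number was 0 and the number over all genes was 39. It was 11 without saline replicate 3, with 1541 of all genes, and 3 without Ang/PE replicate 1 or replicate 4, with 475 and 463 of all genes.

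Zfp469, whose human counterpart is altered in brittle cornea syndrome and which is linked to fibrillar collagen, was at 15.7, 19.3, 10.7 and 14.7 CPM with saline and at 19.8, 25.3, 27.1, 21.01 and 29.2 CPM with Ang/PE. All Ang/PE hearts were higher. The log2 fold change was 0.70 (SE 0.17, adjusted p = 0.0211), with an adjusted p of 0.0961 without saline replicate 4 and 0.0544 without Ang/PE replicate 5. The 3 hearts without a pump had 10.2, 9.55 and 11.1 CPM, and Ang/PE against no pump gave 1.25 (SE 0.19, adjusted p = 0.00391). Zfp469 was the 1 member called in that comparison (0.465%, against 0.503% of all genes). Unadjusted p was below 0.05 for 22 members (10.2%), against 13.1% of all tested genes and 14.4% of those with at least 5 CPM. DESeq2 called 4 members and 403 of all genes. Leaving out WT Ang/PE replicate 3 gave 2 called members among 162 called genes. Without MCT1KO no pump replicate 2 the adjusted p of Zfp469 rose to 0.0649 at a log2 fold change of 1.20. In WT hearts it was at 15.6, 17.4 and 20.2 CPM with Ang/PE, overlapping the saline hearts (11.97 to 16.4 CPM) and the hearts without a pump (7.83 to 15.7 CPM). The step in WT hearts was not called, at 0.30 (SE 0.17, adjusted p = 0.361) against saline and 0.57 (SE 0.19, adjusted p = 0.454) against no pump. The difference between genotypes in the step from saline, 0.40 (SE 0.24), had an adjusted p of 0.460. Summed levels of 4 fibroblast genes were 694 to 1081 CPM with saline and 640 to 1289.9 CPM with Ang/PE in these hearts. Their part in the Zfp469 difference was not tested.

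Zfp467, which promotes fat cell fate in marrow stroma, was at 10.6, 10.3, 10.2 and 21.9 CPM with saline and between 5.94 and 8.68 CPM with Ang/PE, and fell by 0.85 on the log2 scale (SE 0.19, adjusted p = 0.0148). The groups did not overlap, and saline replicate 4 was far above the other saline hearts. Zfp579 was at 20.5, 14.7, 7.62 and 49.9 CPM with saline and between 6.58 and 8.60 CPM with Ang/PE (log2 fold change −1.59, SE 0.36, adjusted p = 0.0175). The saline hearts differed among themselves more than the Ang/PE hearts did, and replicate 3 lay within the Ang/PE range. Summed levels of 6 adipocyte genes ran from 11.5 to 1231 CPM over these 4 saline hearts, highest in replicate 4, and from 12.3 to 15.9 CPM over the Ang/PE hearts, where 1 of the 6 genes was at 0 in all hearts and 5 were under 1 CPM. With atrial and adipocyte scores as covariates Zfp579 was at 0.11 and Zfp467 at −0.23, and neither was called. High scores occur among saline hearts alone, so this fit separates the scores from the treatment poorly. Without saline replicate 4, Zfp467 was at −0.50 (adjusted p = 0.102) and Zfp579 at −0.90 (adjusted p = 0.137).

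**Figure D5:**
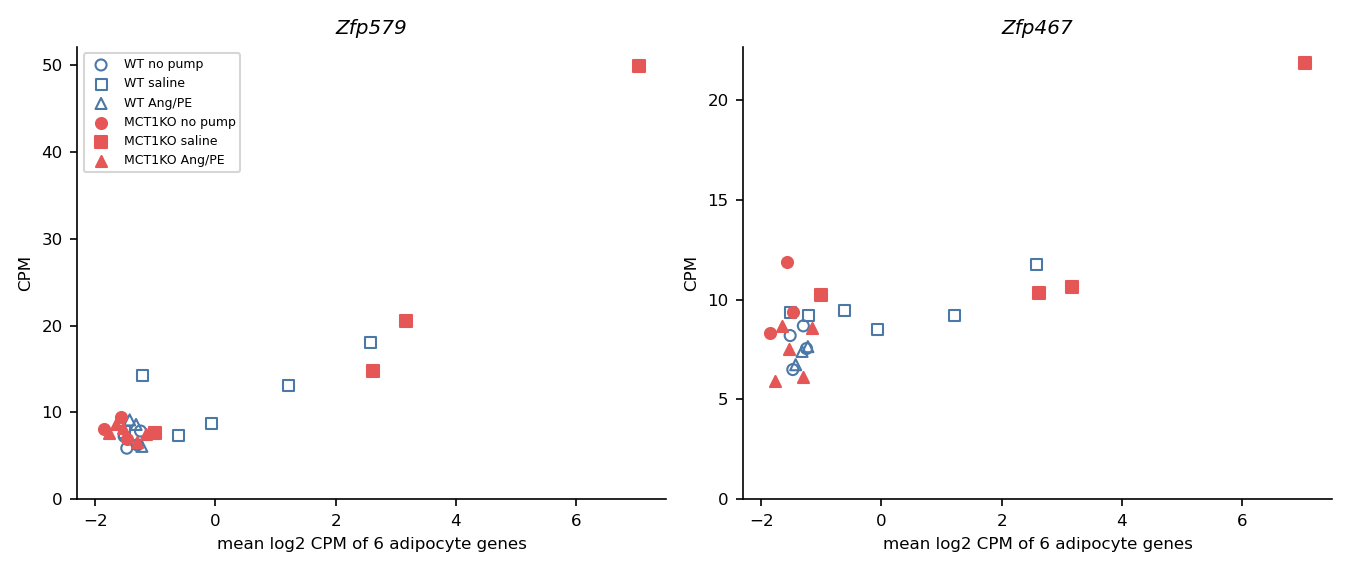
CPM of Zfp579 (left) and Zfp467 (right) against the mean log2 CPM of 6 adipocyte genes in each of the 25 hearts, with WT hearts as open and MCT1KO hearts as filled symbols. MCT1KO saline replicate 4 is at the upper right in both panels, with 49.9 CPM of Zfp579 and 21.9 CPM of Zfp467.

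Zfp106 was at 1167, 1156, 1102 and 680.3 CPM with saline and between 1365 and 1565 CPM with Ang/PE in hearts labelled MCT1KO (log2 fold change 0.53, SE 0.14, adjusted p = 0.0352). All Ang/PE hearts were higher, and saline replicate 4 was far below the other saline hearts. That heart also had the lowest sum of cardiomyocyte markers, 34143 CPM. Without it the change was 0.37 (adjusted p = 0.167). Leaving out Ang/PE replicate 1, 3, 4 or 5 also took the adjusted p above 0.05, to between 0.0571 and 0.0771. Zfp106 shares 25.1% of its 50-base stretches with Gm26899, so part of its reads may belong there.

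Zfp942, a KRAB member of 37.4% GC, was at 9.03, 9.16, 9.75 and 8.97 CPM with saline and between 6.50 and 8.12 CPM with Ang/PE, without overlap, and fell by 0.33 on the log2 scale (SE 0.09, adjusted p = 0.0325). With GC and length offsets its change was −0.29 with an adjusted p of 0.0910. It was not called without saline replicate 4 (adjusted p = 0.0990), Ang/PE replicate 1 (0.0595) or Ang/PE replicate 4 (0.0752).

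Ang/PE against saline in WT hearts shares the WT saline hearts with the contrast that chose the genes. It called 0 members by edgeR, against 0.017% of all genes. Unadjusted p was below 0.05 for 39 members (18.1%, 18 higher and 21 lower). The share was 19.1% of all tested genes and 22.7% of those with at least 5 CPM. DESeq2 called 8 members and 641 of all genes. Zfp758 was at 0.34 (SE 0.16, adjusted p = 0.247) and Zfp931 at 0.28 (SE 0.15, adjusted p = 0.319). Zfp948, a KRAB member, came nearest to a call. It was at 10.9, 10.3 and 25.2 CPM with Ang/PE and between 5.20 and 6.52 CPM with saline, a log2 fold change of 1.41 (SE 0.27, adjusted p = 0.0503). All Ang/PE hearts were higher, and replicate 3 was far above the other 2. It was also the 1 member (0.465%) whose WT saline hearts all lay below every other heart, which held for 0.0113% of all genes. Zfp536 and Zfp710, both higher with saline above, had log2 fold changes of −0.66 and −0.50 here, each with an adjusted p of 0.0718. The number called was 3 without MCT1KO saline replicate 3 (316 of all genes), 2 without MCT1KO Ang/PE replicate 1 (201 of all genes) and 1 without any of 10 other hearts.

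Ang/PE against no pump in WT hearts shares the WT hearts without a pump with the contrast that chose the genes. It called 0 members and 0% of all genes by edgeR. Unadjusted p was below 0.05 for 27 members (12.6%), against 9.02% of all tested genes and 10.5% of those with at least 5 CPM. DESeq2 called 0 members and 35 of all genes. Zfp942 (−0.47, SE 0.10, adjusted p = 0.264), Zfp758 (−0.62, SE 0.17) and Zfp931 (−0.57, SE 0.16, both adjusted p = 0.372) had the smallest p. For all 3 genes the Ang/PE hearts lay below every heart without a pump. That held for 23 members (10.7%), against 7.07% of all tested genes and 8.65% of those with at least 5 CPM. Zfp758 and Zfp931 were chosen for high values in these hearts without a pump, so their place here is a description. In hearts labelled MCT1KO, Zfp758 and Zfp931 were at −0.21 (SE 0.16, adjusted p = 0.656) and −0.17 (SE 0.15, adjusted p = 0.714) in that comparison.

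Members with work beyond DNA binding were read as groups by role. Of the 5 genes of mRNA decay, translation and ubiquitin or SUMO transfer (Zfp36, Zfp598, Zfp91, Zfp451 and Zfp622), 0 were called by edgeR in each of the 11 comparisons, with at most 2 at an unadjusted p below 0.05. Zfp36, a destabiliser of inflammatory mRNAs that rises quickly after stimulation, ranged widely, from 13.9 to 50.2 CPM in WT hearts without a pump and from 23.2 to 105 CPM in hearts labelled MCT1KO with Ang/PE. Of the 4 genes of splicing, spindle and RNA binding, Zfp207 (log2 fold change −0.43, SE 0.10) and Zfp638 (−0.43, SE 0.11) were lower with saline in WT hearts, and Zfp106 is described above. Zfp207 was at 72.3, 89.1, 88.4 and 87.8 CPM without a pump and between 55.5 and 69.9 CPM with saline, so that replicate 1 alone came near the saline hearts. Zfp326 was not called. Of the 3 genes linked to fat cell fate, Zfp423, Zfp516 and Zfp521, 0 were called by edgeR in each comparison, with at most 2 at an unadjusted p below 0.05 and with Zfp521 nearest in hearts labelled MCT1KO for Ang/PE against saline (adjusted p = 0.0835).

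The genes of imprint and retroelement control gave 0 calls by edgeR in the 11 comparisons among the 4 tested of 5 listed, with at most 2 at an unadjusted p below 0.05. Zfp568, which silences a placental Igf2 transcript, had means of 38.1 to 55.5 CPM over the 6 groups, and Zfp809, which silences retroviruses in early embryos, of 20.3 to 22.2 CPM. Zfp57 and Zfp932 lie under 5 CPM and outside the 215. Of the 6 promoter-binding genes, Zfp143, Zfp148, Zfp281, Zfp335 and Zfp746 were not called in any comparison, and Zfp503, which at 2.35 CPM is also outside the set, was called lower for MCT1KO-labelled hearts given Ang/PE rather than saline (adjusted p = 0.0141).

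The proteins that KRAB members work with were measured as well. Of 25 listed partners 24 were tested, Fam208a and Tasor being 2 names of 1 gene. For WT saline against WT no pump Chd4 (log2 fold change 0.46, SE 0.10) and Morc2a (0.28, SE 0.07) were called higher and Fam208a (−0.39, SE 0.11) lower. Unadjusted p was below 0.05 for 8 of the 24 (33.3%), 24.3% of all tested genes and 31.8% of those with at least 5 CPM. The median log2 fold change of the 24 was 0.00. Trim28, the corepressor itself, had group means of 60.7 to 75.8 CPM, and Setdb1 of 27.1 to 28.6 CPM. For MCT1KO-labelled hearts given Ang/PE rather than saline, Resf1 was called higher (1.41, SE 0.40, adjusted p = 0.0460). In the other 9 comparisons 0 were called by edgeR, with 1 to 6 at an unadjusted p below 0.05.

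Other zinc finger families were counted for WT saline against WT no pump. Of 33 Zbtb genes 0 were called higher and 1 lower, with a median log2 fold change of 0.04 at a median GC content of 48.5%. The 9 Zscan, 12 Zkscan and 14 Klf genes had 0 calls by edgeR, with 1, 1 and 6 at an unadjusted p below 0.05 and medians of 0.02, 0.06 and −0.29. Among all tested genes 24.3% had such an unadjusted p. The Klf genes have a median GC content of 47.7%, so their median lay below that of all genes of like GC. Whether these families differ from the numbered Zfp genes was not tested.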

How the data were processed

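The deposited count table holds whole-number counts per gene made by the authors from rRNA-depleted, strand-specific RNA libraries, per the labels' protocols. The submitters' processing notes name GRCm39, mm39, cutadapt 1.16, STAR 2.7.9a, featureCounts 1.6.3 and DESeq2 1.42.1. The annotation, strand setting and handling of multiply matching reads are not given in the sources used here. Total counts of 12216704 to 24880683 per heart set the precision.

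Counts of all 25 hearts in 6 groups were fitted in edgeR 4.0.16 (R 4.3.3) with TMM scaling, a low-count filter that left 17682 genes, and robust quasi-likelihood fits with 19 residual degrees of freedom. P-values were adjusted by Benjamini-Hochberg over all tested genes and called below 0.05. CPM values used raw column totals for the choice of members and effective library sizes elsewhere. The fit was checked on simulated data. Alternatives were RLE scaling, DESeq2 1.42.0, no filter, only the groups compared, a replicate block, removal of mitochondrial genes, Xist, or atrial and adipocyte scores as covariates, GC and length offsets (mgcv 1.9.3), other member thresholds, and leaving out each heart.

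GC content, length, coding sequence and shared 50-base stretches came from GENCODE M21, and promoters and neighbours from RefSeq GRCm38.p6, another assembly than that of the counts. No protein table was used: fingers and the KRAB signature were searched in translated coding sequence. The genes named are Zfp758 and Zfp931, the 8 members of smallest p called in each direction per comparison (the 3 of smallest p where fewer than 3 were called), the 6 highest by CPM and by CPM per kilobase, the 3 on each side of the threshold, and lists by role, KRAB partners and other zinc finger families. Members and lists were chosen with earlier results of these data known.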

Additional observations from a re-analysis of the deposited data

Results flagged for a closer look

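In groups of 4 to 6 hearts, 16 of 200 tests for a value far from its group passed, where chance gives about 1 in 20. All values are log2 CPM, with the range of the other hearts of the group. In MCT1KO saline replicate 4, Zfp106 was low at 9.41 (10.11 to 10.19) and Zfp568 low at 5.04 (5.47 to 5.55), while Zfp467 was high at 4.46 (3.37 to 3.42). This is the heart with the highest adipocyte genes. In MCT1KO saline replicate 3, Zfp788 at 3.74 (3.35 to 3.37), Zfp91 at 6.56 (6.45 to 6.46) and Zfp971 at 4.43 (3.70 to 3.78) were high. This heart had low atrial genes. In WT no pump replicate 1, Zfp207 at 6.18 (6.46 to 6.48) and Zfp971 at 4.4 (4.50 to 4.51) were low, and Zfp536 at 3.78 (3.08 to 3.10) and Zfp652 at 7.17 (6.69 to 6.73) were high.

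The other values stood alone. Zfp143 was low in WT saline replicate 3 at 3.11 (3.35 to 3.44), Zfp608 low in WT saline replicate 6 at 4.33 (4.71 to 4.90) and Zfp467 high in WT saline replicate 4 at 3.57 (3.11 to 3.26). Zfp46 was low in MCT1KO Ang/PE replicate 1 at 5.21 (5.57 to 5.69), Zfp809 low in MCT1KO Ang/PE replicate 2 at 4.10 (4.41 to 4.51), and Zfp869 low in MCT1KO saline replicate 1 at 4.82 (4.96 to 4.96).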

How the results depend on the processing

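For WT saline against WT no pump, where 27 members were called, the number was 41 with DESeq2 (1949 of all genes), 48 with only the groups compared, 17 without the low-count filter, 17 with a member threshold of 10 CPM, 2 with GC and length offsets, 1 with these offsets and the replicate block, and 0 with atrial and adipocyte covariates. For the Ang/PE step from saline in hearts labelled MCT1KO (5 called) it was 8 with DESeq2 (1224 of all genes), 3 with the replicate block, 3 with offsets and block, 3 at a threshold of 10 CPM, 0 with only the groups compared and 0 with the covariates, under which Zfp579 turned from −1.59 to 0.11. For Ang/PE against no pump in these hearts (1 called) it was 4 with DESeq2, 2 with offsets and 2 with offsets and block. Where 0 were called, DESeq2 gave 2 for saline against no pump in hearts labelled MCT1KO, 8 for WT Ang/PE against WT saline, 1 between genotypes without a pump and 10 for the interaction with saline. WT Ang/PE against WT saline also gave 11 with only the groups compared, 1 with RLE scaling and 1 without mitochondrial genes. The cause was not tested. In this section, a member count without the number over all genes beside it does not show whether the family or all genes changed. The covariate fits separate saline from tissue makeup poorly, as said above.

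Leaving out each heart gave 3 to 39 for saline in WT hearts, 0 to 3 for saline in hearts labelled MCT1KO, 0 to 3 for WT Ang/PE against WT saline and 0 to 11 in hearts labelled MCT1KO. It gave 0 to 2 for Ang/PE against no pump in hearts labelled MCT1KO, 0 to 1 between genotypes with saline, 0 to 12 for the interaction with saline and 0 for the other 4 comparisons.

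The labels do not say whether replicate numbers pair the hearts, and the main fits used no pairing. Over 30 pairs of same-numbered hearts the mean correlation of deviations was −0.02 (−0.45 to 0.40). A mean over so few pairs cannot exclude a shared source for some of them. The block gave 20 called members for saline in WT hearts, with no number over all genes beside it. In the GC-corrected fits, the median of the members for the interaction with Ang/PE was −0.01 against −0.06.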
